A study of Mus musculus with 55 samples.

Results

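The hearts described here came from mice without PPARα that had been given a single gavage of tridocosahexaenoin, set against hearts of the same genotype given trilinolenin. Tridocosahexaenoin is the triglyceride of docosahexaenoic acid (DHA), an omega-3 fatty acid with 22 carbons and 6 double bonds, and trilinolenin is the triglyceride of linolenic acid, with 18 carbons and 3 double bonds. The arrays were chosen by their titles: 5 of 5 for tridocosahexaenoin (labelled KO_C226TG) and 5 of 5 for trilinolenin (labelled KO_C183TG), together 10 of the 55 arrays of the series. All bright genes were included, with 1 probe set per gene. A gene was bright, and tested, where its signal exceeded 20 on the linear scale (4.322 on the log2 scale) in at least 3 of the 55 arrays, as did 8237 of 18193 genes (45.28%).

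All mice were male Sv129 animals. KO mice are labelled PPARalpha -/- (129S4/SvJae), and the wild-type (WT) mice used for comparison are labelled 129S1/SvImJ, so genotype and substrain cannot be told apart wherever KO and WT hearts are set against each other. The labels give the age both as 9 to 12 weeks and as 2 to 6 months. Every mouse had first eaten a modified AIN76A run-in diet with olive oil in place of corn oil, was fasted for 4 h, received 400 µL by gavage and gave its heart 6 h later. Volume and time were therefore the same for both oils. Besides the 2 KO oil groups, 5 WT tridocosahexaenoin hearts, 4 WT trilinolenin hearts and 5 KO control hearts were used. The control gavage was the vehicle, 0.5% carboxymethyl cellulose (another label field reads none), so control mice received no oil and differ from both oil groups in fat load as well as in the kind of fatty acid. The study asked how dietary fatty acids act on genes of the mouse heart. Expression was measured on 1 Affymetrix mouse array for each sample, from total heart RNA with a RNA integrity number over 8, and is given as a normalised log2 signal. The labels do not state outright that each array is a separate mouse, so p-values measure the spread between these samples.

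PPARα is a nuclear receptor that binds fatty acids and, with its partner RXR, switches on genes of fatty acid uptake, oxidation and storage. The heart draws most of its fuel from fatty acids, and in wild-type mice a fat load raises such PPARα targets. In PPARα-null animals other routes remain through which a fatty acid can reach gene expression, among them PPARδ, the oxidant sensor NRF2, the integrated stress response and hormones such as glucocorticoids and insulin. Highly unsaturated fatty acids such as DHA also lower the activity of the lipogenic factor SREBP-1.

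The targeted gene followed the labels. Of its probe sets, one read 4.96 to 5.69 in KO tridocosahexaenoin hearts and 4.64 to 5.93 in KO trilinolenin hearts, against 6.64 to 7.33 in WT tridocosahexaenoin hearts and 6.07 to 6.81 in WT trilinolenin hearts, with no overlap between genotypes. The probe set with the highest mean read 6.93 to 7.49 in KO tridocosahexaenoin hearts and 7.06 to 7.58 in KO trilinolenin hearts, against 8.11 to 8.59 in WT tridocosahexaenoin hearts and 7.38 to 7.95 in WT trilinolenin hearts, where the genotypes overlapped. Whether any of these probe sets lies in the deleted part was not examined. Pairwise correlations between arrays over the tested genes were 0.979 to 0.991 among tridocosahexaenoin hearts, 0.985 to 0.993 among trilinolenin hearts and 0.980 to 0.993 between them, so the groups did not separate as wholes. The 3 arrays of lowest weight in a fit that weights arrays by their spread all belonged to these groups: replicate 5 (0.472) and replicate 1 (0.478) of tridocosahexaenoin and replicate 5 (0.492) of trilinolenin, in a series whose weights reached 1.72. Tridocosahexaenoin replicate 1 had an Hspa1b signal of 11.08, where the other 4 hearts of its group had 4.07 to 5.21. The called genes whose difference moved by over 1.5 times without these arrays are named below with both values.

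Few genes passed the threshold for a difference between the 2 oils in PPARα-null hearts, which does not show that few differ. In limma's moderated test over 8237 genes, 27 genes (0.328% of those tested) differed at an adjusted p under 0.05 and are called here. Of these, 19 (0.231%) were higher after tridocosahexaenoin and 8 (0.0971%) were lower. The called differences were small, 1.15 to 2.22-fold, and 7 of the 27 exceeded 1.5-fold. The genes that rose were led by the cytokine signalling inhibitor Cish, the small GTPase Rasl11b and the membrane protease Tmprss13, and included the stress factor Ddit3, the amino acid transporter Slc38a2, the glycogen subunit Ppp1r3c, the glycolytic enzyme Pgam1 and the clock-linked repressor Bhlhe40. The genes that fell were led by Zc3h6 and the arrestin-family gene Arrdc3. Including the called genes, 878 genes (10.7%) had an unadjusted p under 0.05, 552 of them higher after tridocosahexaenoin and 326 lower. If no gene differed, 411.9 would be expected on average. Genes on the same arrays vary together, so this count is no test. The 95% interval of the difference lay within 1.5-fold in both directions for 7530 genes (91.42%), and for the remainder the data do not bound the difference that closely. The median difference over all tested genes was 0.0099 on the log2 scale, and 4438 genes (53.88%) were above 0.

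The number of called genes rested on few arrays. It was 0 without tridocosahexaenoin replicate 1, 10 without its replicate 3 and 44, 47 and 55 without its replicates 2, 4 and 5, and it was 8, 1 and 14 without trilinolenin replicates 2, 3 and 5. It was also 0 in a fit with array weights, 0 without the 3 arrays of lowest weight, and 0 in fits of the 2 groups or of the KO groups alone, where 748, 609, 579 and 827 genes had an unadjusted p under 0.05. All 27 called genes kept the sign of their difference in every alternative setting that tested them, up to 21 for each. The settings reuse the arrays on which the genes were selected, which favours this outcome, so it is no support for the calls. Without the 3 arrays of lowest weight 6 of the 27 differences moved by over 1.5 times: Zfp770 was 0.4 instead of 0.62, Pgam1 0.29 instead of 0.49, Abhd17c 0.25 instead of 0.42, Perm1 0.22 instead of 0.38, Pptc7 0.18 instead of 0.28 and Atxn1 −0.33 instead of −0.51. Without both tridocosahexaenoin arrays of low weight 3 did so, Pgam1 at 0.27, Pptc7 at 0.18 and Atxn1 at −0.26. Where the probe sets of each gene were averaged instead of taking the brightest, 25 of the 27 were tested and 9 of these were no longer called. In that setting 7 differences moved by over 1.5 times: Zfp770 was 0.38 (adjusted p = 0.0628), Perm1 0.19 (adjusted p = 0.0963), Pex2 0.16 (adjusted p = 0.307), Zfp207 0.0626 (adjusted p = 0.707), Atxn1 −0.25 (adjusted p = 0.102), Cyp27a1 −0.24 (adjusted p = 0.141) and Dpm1 −0.13 (adjusted p = 0.219). The mean takes in dim probe sets as well as bright ones. Zfp770, Perm1, Pex2, Cyp27a1 and Dpm1 had 0 other bright probe sets, so no other bright probe set disagreed for them. Zfp207 and Atxn1 had 1 each, at −0.0312 and −0.42. Rasl11b was called in 16 of 21 settings, Arrdc3 in 15, and Cish, Slc38a2 and Pgam1 in 14 each.

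**Figure D1:**
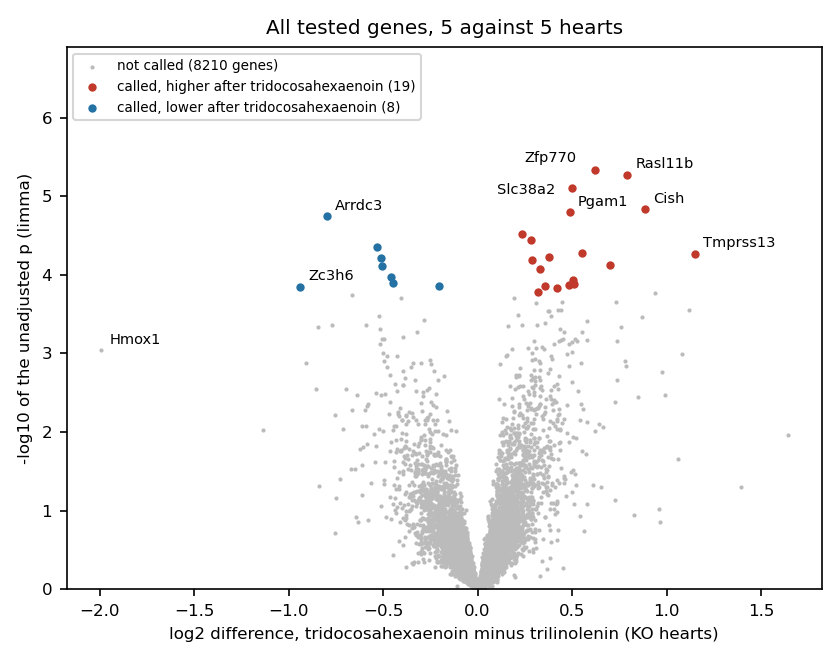
Difference between the oils in PPARα-null hearts for all 8237 tested genes. The horizontal axis is the log2 difference, tridocosahexaenoin minus trilinolenin, and the vertical axis is −log10 of the unadjusted limma p. Red and blue points are the 19 called rises and 8 called falls, and Hmox1, the gene farthest to the left, was not called.

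Among signalling genes, Cish encodes an inhibitor of cytokine receptor signalling that is itself induced by STAT5. Its log2 signal was 9.36, 8.61, 8.55, 8.98 and 8.63 in the 5 tridocosahexaenoin hearts, against 8.21, 8.29, 7.74, 7.61 and 7.86 in the 5 trilinolenin hearts. The groups did not overlap, and tridocosahexaenoin replicate 1 was the highest heart. Its difference was 0.88 ± 0.18 (SE; adjusted p = 0.0244). Rasl11b, a small GTPase of the Ras family, had 8.87, 8.63, 8.33, 8.95 and 8.11 in tridocosahexaenoin hearts, against 8.14, 7.74, 8.02, 7.42 and 7.62 in trilinolenin hearts. The lowest tridocosahexaenoin heart lay just under the highest trilinolenin heart, and the difference was 0.79 ± 0.15 (adjusted p = 0.0214). Grk3, a kinase that desensitises G protein-coupled receptors, averaged 6.99 ± 0.22 (SD) in tridocosahexaenoin hearts and 6.5 ± 0.32 in trilinolenin hearts, a difference of 0.48 ± 0.12 (adjusted p = 0.0463). Abhd17c, an enzyme that removes palmitate from proteins, rose by 0.42 ± 0.1 (adjusted p = 0.0463).

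The largest called rise was that of Tmprss13, a serine protease anchored in the cell membrane. Tmprss13 had 5.54, 4.06, 5.64, 4.99 and 5.15 in tridocosahexaenoin hearts, against 3.87, 3.82, 3.67, 3.99 and 4.26 in trilinolenin hearts. Tridocosahexaenoin replicate 2 lay among the trilinolenin hearts, and the other 4 lay above all of them. The fitted difference was 1.15 ± 0.26 (adjusted p = 0.0377), and its size is inexact because the trilinolenin mean of 3.92 is under the brightness minimum.

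Slc38a2 encodes a sodium-coupled transporter of neutral amino acids that the integrated stress response induces. It had 11.09, 10.52, 10.48, 10.76 and 10.61 in tridocosahexaenoin hearts, against 10.4, 10.11, 10.16, 10.07 and 10.22 in trilinolenin hearts. The groups did not overlap, the difference was 0.5 ± 0.1 (adjusted p = 0.0214), and a second bright probe set of the gene gave 0.56. Ddit3, the transcription factor CHOP of the integrated stress response, had 7.27, 7.36, 6.87, 6.95 and 6.66 in tridocosahexaenoin hearts, against 6.6, 6.75, 6.33, 6.53 and 6.14 in trilinolenin hearts. The lowest tridocosahexaenoin heart lay within the trilinolenin range, and the difference was 0.55 ± 0.12 (adjusted p = 0.0377). Ddit3 was the 1 called gene of 18 tested genes of the unfolded protein response and of 12 tested genes of the amino acid and integrated stress response. Of all tested genes 0.328% were called, and a single called member says little about either list.

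Ppp1r3c encodes the subunit that brings protein phosphatase 1 to glycogen, where it promotes glycogen synthesis. It had 10.72, 10.18, 10.11, 10.08 and 10.2 in tridocosahexaenoin hearts, against 9.74, 9.73, 9.63, 9.92 and 9.72 in trilinolenin hearts. All tridocosahexaenoin hearts lay above all trilinolenin hearts, with a difference of 0.51 ± 0.12 (adjusted p = 0.0463) and 0.67 on a second probe set. Pgam1, a phosphoglycerate mutase of glycolysis, had 9.15, 8.6, 8.9, 8.44 and 9.25 in tridocosahexaenoin hearts, against 8.46, 8.46, 8.19, 8.33 and 8.46 in trilinolenin hearts. Tridocosahexaenoin replicate 4 lay just under the highest trilinolenin hearts, and the difference was 0.49 ± 0.1 (adjusted p = 0.0244). Pgam1 was the 1 called gene among 27 tested genes of glucose metabolism, beside 0.328% of all tested genes. The median difference of that list was 0.00831 (−0.00623 to 0.0247 with 1 array left out).

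Among transcription regulators, Bhlhe40 encodes a repressor that binds E-boxes (CACGTG) and dampens the circadian clock. It had 8.1, 7.52, 7.57, 7.52 and 7.25 in tridocosahexaenoin hearts, against 6.98, 6.73, 6.82, 7.54 and 6.37 in trilinolenin hearts. Trilinolenin replicate 4 reached the tridocosahexaenoin range, and the difference was 0.7 ± 0.16 (adjusted p = 0.0395). It was the 1 called gene of 14 tested clock genes, beside 0.328% of all tested genes. Of the clock genes 4 were above 0 and 10 below. The zinc finger gene Zfp770 had 7.52, 7.1, 7.55, 7.1 and 7.37 in tridocosahexaenoin hearts, against 7.03, 6.62, 6.62, 7.13 and 6.13 in trilinolenin hearts. The groups overlapped by a single trilinolenin heart, replicate 4, and the difference was 0.62 ± 0.12 on the brightest probe set (adjusted p = 0.0214). With the mean of its probe sets, the others all dim, it was 0.38 and not called (adjusted p = 0.0628).

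Timm8a1, a chaperone of protein import in the mitochondrial intermembrane space, averaged 7.27 ± 0.25 in tridocosahexaenoin hearts and 6.77 ± 0.17 in trilinolenin hearts, without overlap (0.5 ± 0.12, adjusted p = 0.0463). The other called rises fell outside the rule for named genes and were named after their values were seen. Perm1, a muscle regulator of oxidative metabolism induced by PGC-1 and ERR, rose by 0.38 on its brightest probe set (adjusted p = 0.0377). Pptc7, a phosphatase of the mitochondrion, rose by 0.28 (adjusted p = 0.037), the creatine transporter Slc6a8 by 0.23 (adjusted p = 0.0356) and the peroxisomal import factor Pex2 by 0.29 on its brightest probe set (adjusted p = 0.0377), each without overlap between the groups. Apbb1, an adaptor of the amyloid precursor protein, rose by 0.36 (adjusted p = 0.0463) and Nf2, the tumour suppressor merlin, by 0.32 (adjusted p = 0.0498). Zfp207, a spindle assembly factor, rose by 0.33 (adjusted p = 0.0404) on its brightest probe set, but its other bright probe set gave −0.0312.

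Of the genes that fell, Arrdc3 encodes an alpha-arrestin that acts on beta-adrenergic receptors and is related to the glucose-responsive gene Txnip. It had 8.08, 8.35, 8.28, 8.06 and 8.68 in tridocosahexaenoin hearts, against 9.2, 8.95, 9.48, 9.08 and 8.74 in trilinolenin hearts. The groups did not overlap, and the difference was −0.8 ± 0.17 (adjusted p = 0.0244). Zc3h6, a CCCH zinc finger gene, had 5.05, 5.52, 5.68, 6.74 and 6.37 in tridocosahexaenoin hearts, against 6.83, 6.78, 6.91, 6.78 and 6.75 in trilinolenin hearts. The trilinolenin hearts were tightly grouped and the tridocosahexaenoin hearts widely spread below them, with replicate 4 almost level, and the difference was −0.94 ± 0.23 (adjusted p = 0.0463).

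Cyp27a1, the mitochondrial sterol 27-hydroxylase of bile acid and oxysterol synthesis, had 7.18, 7.85, 7.83, 7.74 and 7.96 in tridocosahexaenoin hearts, against 8.05, 8.45, 8.02, 8.04 and 8.23 in trilinolenin hearts. All tridocosahexaenoin hearts were lower, and the difference was −0.45 ± 0.11 on the brightest probe set (adjusted p = 0.0463). With the mean of its probe sets, the others all dim, it was −0.24 and not called (adjusted p = 0.141). Cyp27a1 was the 1 called gene of 10 tested cytochrome P450 and eicosanoid-pathway genes, beside 0.328% of all tested genes. Cdkn1c, the cell cycle inhibitor p57, had 5.72, 5.93, 5.94, 5.98 and 5.97 in tridocosahexaenoin hearts, against 6.7, 6.54, 6.24, 6.37 and 6.34 in trilinolenin hearts. These also did not overlap, and the difference was −0.53 ± 0.12 (adjusted p = 0.0377). Dpm1, a subunit of the mannosyltransferase that supplies glycosylation, fell by 0.2 on its brightest probe set (adjusted p = 0.0463), the smallest called difference, with groups of SD 0.0639 and 0.0471 that did not overlap. Atxn1, a transcriptional corepressor, fell by 0.51 on its brightest probe set (adjusted p = 0.0395) with overlapping groups. Its other bright probe set gave −0.42, and with the mean of all its probe sets it was −0.25 and not called (adjusted p = 0.102). The DNA glycosylase Neil1 and the cell surface oxidase Enox2 were also called, at −0.51 ± 0.12 (adjusted p = 0.0377) and −0.46 ± 0.11 (adjusted p = 0.0463), but have inexact sizes because at least 1 group mean was under the brightness minimum. Neil1 was above that minimum in 3 of 55 arrays, all 3 from trilinolenin hearts, so it entered the test only through the group where it is high and its call is no support for a difference. Since fewer than 10 falls were called, the next by p were Apcdd1, an inhibitor of Wnt signalling, at −0.66 ± 0.16 (adjusted p = 0.0509, an inexact size at a dim signal) and the cell cycle inhibitor Cdkn2d at −0.4 ± 0.1 (adjusted p = 0.0524; −0.16 without the 3 arrays of lowest weight), which did not pass.

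The 5 hearts of each group did not overlap for 15 of the 27 called genes and for 121 of all tested genes (1.47%), a comparison that the selection of called genes itself favours.

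**Figure D2:**
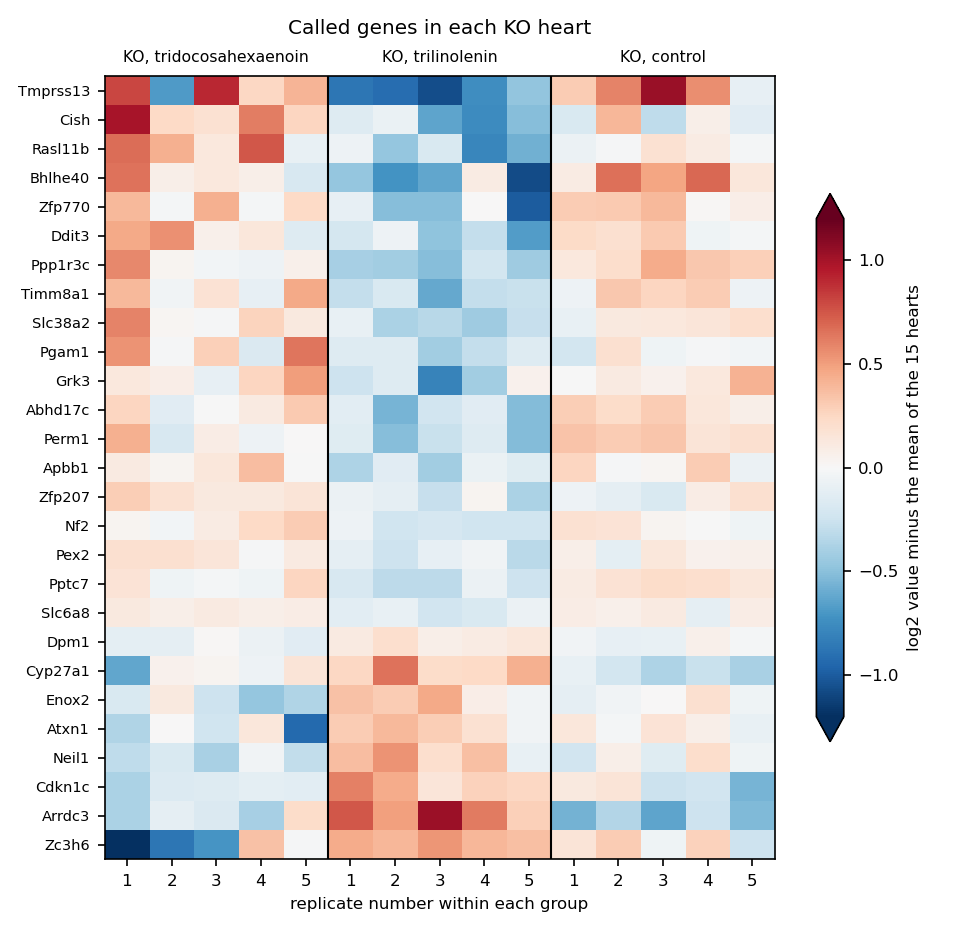
Signals of the 27 called genes in single PPARα-null hearts, as log2 value minus the mean of the 15 hearts shown. Rows run from the largest rise, Tmprss13, to the largest fall, Zc3h6, and columns are the 5 hearts each of tridocosahexaenoin, trilinolenin and control. The trilinolenin hearts are mostly blue for the 19 rises and mostly red for the 8 falls, and tridocosahexaenoin replicate 1 is the highest of its group for Cish, Bhlhe40, Ppp1r3c and Slc38a2.

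Promoters were examined for the called genes because Bhlhe40, a protein that binds E-boxes, and Slc38a2 and Ddit3, genes of the integrated stress response, were among them. Promoter windows of 250 bases before to 50 after the start site came from RefSeq (GRCm38.p6), with 17 windows for 14 of the 19 called rises, 8 for 6 of the 8 called falls and 8764 for 6760 of all tested genes. The E-box CACGTG lay in 3 of 17 windows of called rises (17.6%), in 0 of 8 windows of called falls and in 10.2% of all windows. The 2 windows below are those of Ppp1r3c, which holds an E-box, and of Slc38a2, which holds a core of the antioxidant response element (TGACNNNGC). They are printed 5′ to 3′ with the motif in capitals, and the transcription start lies 250 bases from the left end.
Ppp1r3c, chr19:36736555-36736854, minus strand: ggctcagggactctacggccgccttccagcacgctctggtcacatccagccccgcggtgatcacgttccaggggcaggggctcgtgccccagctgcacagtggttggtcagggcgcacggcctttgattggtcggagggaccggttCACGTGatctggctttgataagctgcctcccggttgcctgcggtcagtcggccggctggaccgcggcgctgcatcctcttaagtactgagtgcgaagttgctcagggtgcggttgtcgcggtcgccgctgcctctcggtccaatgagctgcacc
Slc38a2, chr15:96699679-96699978, minus strand: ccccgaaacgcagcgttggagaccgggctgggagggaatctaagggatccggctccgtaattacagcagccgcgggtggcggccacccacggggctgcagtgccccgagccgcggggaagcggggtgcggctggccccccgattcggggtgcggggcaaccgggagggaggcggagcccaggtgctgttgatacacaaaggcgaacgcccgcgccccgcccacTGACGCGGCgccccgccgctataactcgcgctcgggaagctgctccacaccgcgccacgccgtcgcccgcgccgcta
The E-box of Ppp1r3c starts 104 bases before the start site and the antioxidant core of Slc38a2 starts 27 bases before it. That core was in 2 of 17 windows of called rises (11.8%), 1 of 8 windows of called falls (12.5%) and 14.6% of all windows. The 1 window among called falls was that of Neil1, whose call is no support for a difference, so that share carries no weight. On both strands, 0 windows of called genes held the cyclic AMP element TGACGTCA, the FoxO site TGTTTAC, the ATF4 site TGATGNAAT, the sterol element TCACNCCAC, the glucocorticoid response element, the direct repeat 1 or the heat shock element. These were in 3.09%, 2.59%, 0.411%, 1.13%, 0.377%, 0.0228% and 0.536% of all windows, in that order. At shares this low, 17 and 8 windows leave few or no matches to find, so the 0 says nothing about the called genes. Sites outside the windows were not examined. The antioxidant core and the cyclic AMP element share their first letters TGAC. A match is a description of these letters, not of binding.

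Each oil was also set against the 5 KO control hearts. Tridocosahexaenoin differed from control in 292 genes (3.54% of those tested) and trilinolenin in 984 genes (11.9%). Both comparisons use the same control arrays, each shares an oil group with the comparison between the oils, and the count of 292 was 12 in a fit of the 2 groups alone. It was 194, 505 and 43 without tridocosahexaenoin replicates 3, 4 and 5 and 179, 161 and 90 without control replicates 1, 2 and 3, and the count of 984 was 649 without control replicate 3. The median difference from control over 7 tested markers of atrial muscle was 0.6 after tridocosahexaenoin and 0.56 after trilinolenin, and their part in these counts was not tested. Because of the shared arrays the values of the 27 called genes stand side by side, without a test. Against control, 0 of the 27 were called after tridocosahexaenoin and 20 after trilinolenin, with a median absolute log2 difference of 0.14 for tridocosahexaenoin and 0.4 for trilinolenin, where all tested genes had medians of 0.0943 and 0.11.

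Arrdc3, for example, averaged 8.29 ± 0.25 in tridocosahexaenoin hearts and 9.09 ± 0.28 in trilinolenin hearts, against 7.99 ± 0.16 in control hearts (SD, n = 5 each). Its differences from control were 0.3 ± 0.17 after tridocosahexaenoin (adjusted p = 0.348) and 1.1 ± 0.17 after trilinolenin (adjusted p = 2.76e-05). Bhlhe40 differed from control by −0.26 ± 0.16 after tridocosahexaenoin (adjusted p = 0.402) and by −0.97 ± 0.16 after trilinolenin (adjusted p = 9.35e-05). For most of these genes the trilinolenin hearts lay farther from control, on arrays that also served to select the genes. Cish was among the exceptions: it was 0.49 ± 0.18 above control after tridocosahexaenoin (adjusted p = 0.127) and 0.4 ± 0.18 below it after trilinolenin (adjusted p = 0.155), neither called. Zc3h6 was −0.6 ± 0.23 from control after tridocosahexaenoin (adjusted p = 0.125) and 0.34 ± 0.23 after trilinolenin (adjusted p = 0.366). For 22 of the 27 genes the difference from control was larger in size after trilinolenin than after tridocosahexaenoin, as it was for 4833 of all 8237 tested genes.

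**Figure D3:**
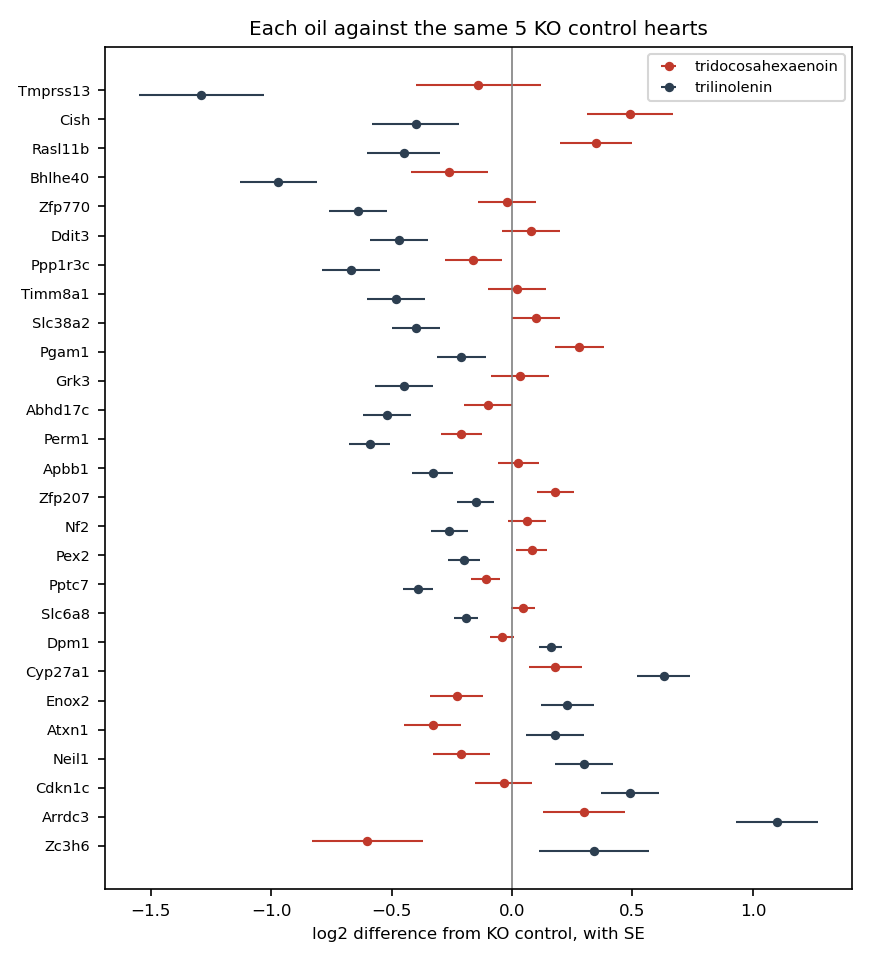
Log2 difference of each oil from the same 5 KO control hearts for the 27 called genes, with SE. Red points are tridocosahexaenoin and dark points trilinolenin. For 22 of 27 genes the red point lies nearer to 0, and Cish and Zc3h6 are among those with points on both sides.

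The same 2 oils were compared in WT hearts, which are separate arrays. There 46 genes (0.558%) were called, and 870 genes (10.6%) had an unadjusted p under 0.05. The count of 46 was 0 in a fit of the 2 groups alone, 27, 16 and 23 without WT tridocosahexaenoin replicates 2, 4 and 5, and 19 and 13 without WT trilinolenin replicates 3 and 4. Of the 27 genes called in KO hearts, 24 (88.9%) differed in the same direction in WT hearts, against 60.1% of all tested genes. Of the 27, 19 (70.4%) had an unadjusted p under 0.05 in WT hearts, all in the same direction. Both comparisons take the variance of a gene from the same fit of all arrays, so their p-values are not independent. The genes called in both genotypes were Ppp1r3c, Perm1, Enox2 and Dpm1, which are 14.8% of those called in KO hearts and 8.7% of those called in WT hearts. Over 8237 genes the KO and WT differences had a Pearson correlation of 0.346, which describes genes measured together on the same arrays and carries no test.

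Ppp1r3c had 9.52, 9.97, 10.08, 10.4 and 9.73 in WT tridocosahexaenoin hearts, against 9.44, 9.21, 8.88 and 9.45 in WT trilinolenin hearts. All WT tridocosahexaenoin hearts were higher, by 0.7 ± 0.13 (adjusted p = 0.00247). Perm1 differed by 0.55 ± 0.0906 in WT hearts (adjusted p = 0.000681) and Cish by 0.76 ± 0.19 (adjusted p = 0.0501, not called). Abhd17c, Grk3 and Cdkn1c had WT differences of −0.00355, 0.0227 and 0.00495. Neil1 was below the brightness minimum in all WT hearts, so its WT value gives no comparison. Whether the oils differed unlike in KO and WT hearts was tested directly as an interaction, which called 0 genes (0% of those tested, smallest adjusted p 0.284), and the unadjusted p was under 0.05 for 401 genes (4.868%). Abhd17c, at 0.43 ± 0.15 in KO minus WT, had an adjusted p of 0.98 there, so no gene was shown to respond to the choice of oil in KO hearts alone.

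**Figure D4:**
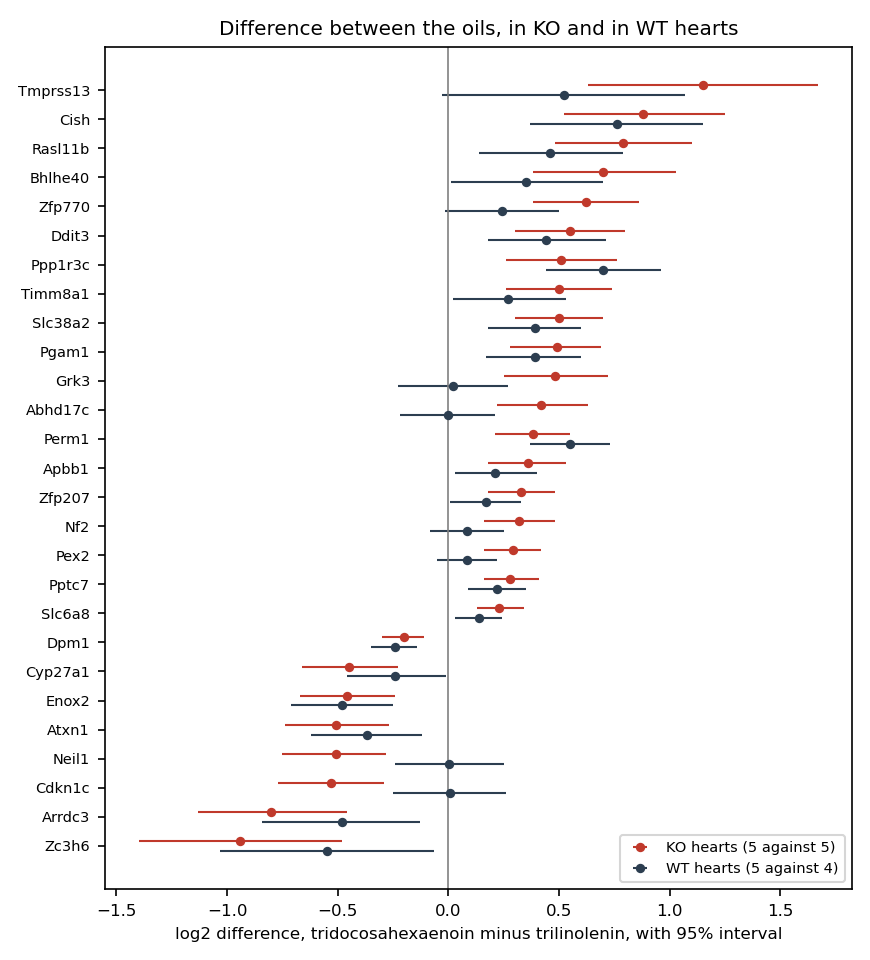
Difference between the oils (tridocosahexaenoin minus trilinolenin) in KO hearts, in red, and in WT hearts, in dark, for the genes called in KO hearts, with 95% intervals on the log2 scale. In 24 of 27 genes both points are on the same side of 0, and the WT points of Abhd17c, Grk3 and Cdkn1c lie at about 0. Neil1 was below the brightness minimum in all WT hearts.

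Of the 46 genes called in WT hearts, 41 differed in the same direction in KO hearts, against 60.1% of all tested genes. The sizes in KO hearts varied. Hsd17b11, a lipid droplet dehydrogenase, differed by −0.62 ± 0.11 in WT hearts (adjusted p = 0.000681) and by 0.0167 ± 0.1 in KO hearts (adjusted p = 0.982), with an interaction of 0.64 ± 0.14 (adjusted p = 0.284). The peroxisomal oxidation enzyme Ehhadh differed by −0.73 ± 0.17 in WT hearts (adjusted p = 0.0255) and by −0.00644 ± 0.16 in KO hearts, with an interaction of 0.72 ± 0.23 (adjusted p = 0.98). Tspyl4, a nucleosome assembly family gene, differed by −0.65 ± 0.15 in WT hearts (adjusted p = 0.0196) and by −0.52 ± 0.14 in KO hearts (adjusted p = 0.0742, without overlap). With the mean of its probe sets, the others all dim, the KO difference was −0.24. Tnfrsf12a, the receptor of the cytokine TWEAK, differed by 1.29 ± 0.3 in WT hearts (adjusted p = 0.0255) and by 1.12 ± 0.28 in KO hearts (adjusted p = 0.0607). Frmd5 and Ppfia1, genes of cell adhesion, differed by 1.2 ± 0.2 (adjusted p = 0.000681) and 1.06 ± 0.2 (adjusted p = 0.00247) in WT hearts, and by 0.27 ± 0.18 and 0.36 ± 0.19 in KO hearts, neither called. With 1 array left out the KO difference of Frmd5 ranged between 0.1 without tridocosahexaenoin replicate 1 and 0.43 without its replicate 5, and that of Ppfia1 was 0.23 with array weights. Interactions of smallest p were taken in each direction, leaving out genes with only a clone name. On the positive side these were Hsd17b11, Cfap410 (0.69 ± 0.16) and B4galt6 (0.61 ± 0.16). On the negative side they were Insig1 (−0.72 ± 0.19), Rnf138 (−0.84 ± 0.23) and Ankrd33b (−0.64 ± 0.18). None was called, and the size for Cfap410 is inexact. Insig1, which holds back SREBP processing, differed by −0.38 ± 0.13 in KO hearts (adjusted p = 0.213; −0.24 without both tridocosahexaenoin arrays of low weight) and by 0.34 ± 0.14 in WT hearts (adjusted p = 0.362).

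Of the fatty acid responsive index genes, none of the 16 that were tested was called between the oils in KO hearts. Only 0.328% of all tested genes were called, so this count says little about the index genes. Angptl4, an inhibitor of lipoprotein lipase, had 8.63, 7.38, 8.21, 7.81 and 9.64 in tridocosahexaenoin hearts, against 8.12, 8.22, 7.82, 8.19 and 9.08 in trilinolenin hearts. The tridocosahexaenoin hearts reached beyond the trilinolenin hearts at both ends, the difference was 0.0505 ± 0.38 with a 95% interval of −0.72 to 0.82, and it was −0.0232, −0.28 and −0.0657 without tridocosahexaenoin replicate 1, tridocosahexaenoin replicate 5 or trilinolenin replicate 3. Control hearts had 6.87 to 7.79, below all trilinolenin hearts but overlapping tridocosahexaenoin replicate 2. The differences from control were 1.22 ± 0.38 after tridocosahexaenoin (adjusted p = 0.0656, not called) and 1.16 ± 0.38 after trilinolenin (adjusted p = 0.0384). Pdk4, the kinase that shuts off pyruvate dehydrogenase, differed by −0.28 ± 0.2 between the oils (95% interval −0.69 to 0.13). That difference was −0.46 without tridocosahexaenoin replicate 5, −0.18 without its replicate 2 and −0.17 without trilinolenin replicate 5. Pdk4 was called against control after both oils, at 0.77 ± 0.2 after tridocosahexaenoin (adjusted p = 0.0248) and 1.05 ± 0.2 after trilinolenin (adjusted p = 0.000506).

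The lipid droplet coat genes Plin2 and Plin5 differed by 0.0598 ± 0.12 and 0.23 ± 0.18, the fatty acid transporter Cd36 by −0.0139 ± 0.0535, the fatty acid binding protein Fabp3 by 0.054 ± 0.034 on its brightest probe set and the carnitine palmitoyltransferase Cpt2 by −0.1 ± 0.0594. A second bright probe set gave 0.21 for Fabp3 and 0.59 for Plin5, so the size for these genes depends on the probe set. For Cd36 and Cpt2 the 95% intervals were −0.12 to 0.0937 and −0.22 to 0.0238. The difference of Cpt2 was −0.0505 without the 3 arrays of lowest weight. The thioesterase gene Acot1 differed by 0.61 ± 0.3 (adjusted p = 0.463) and the uncoupling protein gene Ucp3 by −0.1 ± 0.27, both with inexact sizes at dim signals. Acot1 was 0.33 without tridocosahexaenoin replicate 5, 0.89 without its replicate 3 and 0.0857 without both tridocosahexaenoin arrays of low weight. In the list of PPAR targets 0 of 33 tested members were called, beside 0.328% of all tested genes. Of these members 20 were above 0, and the median difference was 0.0344, beside 0.0099 for all tested genes. That median was −0.0111 without tridocosahexaenoin replicate 5, so its sign rested on 1 array. Mitochondrial fatty acid oxidation had 0 of 21 called and a median of 0.0392 (0.0208 to 0.0681 with 1 array left out), and peroxisomal lipid metabolism had 0 of 16 and a median of −0.0322 (−0.0552 to −0.0192).

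The largest difference of any tested gene that was lower after tridocosahexaenoin was that of Hmox1, heme oxygenase 1, an NRF2 target that breaks down heme. Hmox1 had 5.53, 8.55, 7.09, 4.17 and 6.77 in tridocosahexaenoin hearts, against 9.2, 9.34, 8.27, 7.5 and 7.77 in trilinolenin hearts and 4.92 to 6 in control hearts. The tridocosahexaenoin hearts were widely scattered, 4 of 5 lay below all trilinolenin hearts, and replicate 2 lay among them. The difference was −1.99 ± 0.56 with an adjusted p of 0.094, so it was not called, and it was called in 1 of 21 alternative settings. With 1 array left out it ranged between −2.53 without tridocosahexaenoin replicate 2, the highest heart of its group (adjusted p = 0.0202), and −1.43 without replicate 4, the lowest (adjusted p = 0.273). Against control Hmox1 differed by 1.04 ± 0.56 after tridocosahexaenoin (adjusted p = 0.33) and by 3.04 ± 0.56 after trilinolenin (adjusted p = 0.000299). In WT hearts the oils differed by −0.17 ± 0.6, with 5.06 to 9.11 after tridocosahexaenoin and 7.31 to 9.18 after trilinolenin. The list of NRF2 targets as a whole had 0 of 25 members called, beside 0.328% of all tested genes. Its median was −0.0177 (−0.0757 to −0.000731 with 1 array left out).

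The metal-binding metallothionein Mt2 had 8.39 to 11.02 in tridocosahexaenoin hearts and 10 to 10.96 in trilinolenin hearts (−0.67 ± 0.3, adjusted p = 0.393), against 8.2 to 9.11 in control hearts. The difference of Mt2 was −0.3 without tridocosahexaenoin replicate 4 and −0.95 without its replicate 5. The glucocorticoid-induced genes Fkbp5 and Zbtb16 differed by 0.0412 ± 0.35 and −0.15 ± 0.32 between the oils. Against control Fkbp5 was called after both oils, at 1.94 ± 0.35 after tridocosahexaenoin (adjusted p = 0.00163) and 1.9 ± 0.35 after trilinolenin (adjusted p = 0.000309). Scd2, a stearoyl-CoA desaturase, had 7.95 to 8.33 in tridocosahexaenoin hearts and 7.12 to 7.89 in trilinolenin hearts, without overlap, against 8.36 to 9.03 in control hearts. Its difference between the oils was 0.47 ± 0.18 (adjusted p = 0.262) and was not called. The early response gene Nr4a1 and the natriuretic peptide gene Nppb differed by 0.73 ± 0.4 and 0.43 ± 0.31, neither called. Without tridocosahexaenoin replicate 1, the highest heart for both, Nr4a1 was 0.3 and Nppb 0.21, and their ranges with 1 array left out were 0.3 to 1.07 for Nr4a1 and 0.21 to 0.7 for Nppb.

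**Figure D5:**
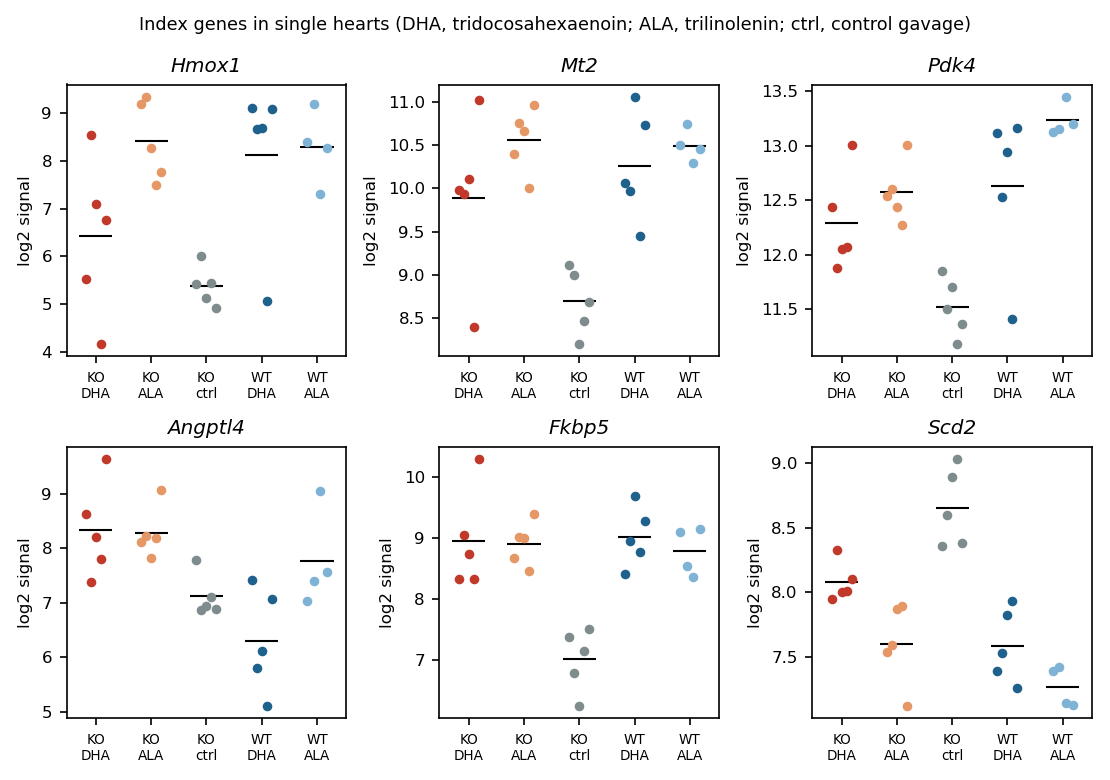
Log2 signals of 6 index genes in single hearts, with group means as lines. DHA is tridocosahexaenoin, ALA trilinolenin and ctrl the control gavage. The 5 KO tridocosahexaenoin hearts scatter more widely than the trilinolenin hearts for Hmox1 and Mt2, both oils stand above control for Fkbp5, and the Scd2 values of the oils do not overlap in KO hearts.

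Across the gene lists, called genes were rare, as they were among all tested genes (0.328%). A count of 0 called therefore says little about any list here or below. Medians were near 0 for many lists but not for all. Circadian clock genes had a median of −0.14, which was 0.0565 without tridocosahexaenoin replicate 1, and inflammation genes had 0 of 9 called, 7 above 0 and a median of 0.17 (0.0947 without trilinolenin replicate 1). Glucocorticoid responsive genes had 0 of 22 called, 19 of 22 below 0 and a median of −0.27, which ranged between −0.42 and −0.15 with 1 array left out. The mean of this list over single hearts, relative to the 10 hearts, was −0.29, −0.27, −0.19, −0.63 and 0.75 in tridocosahexaenoin hearts and 0.0748, 0.21, 0.0932, −0.17 and 0.43 in trilinolenin hearts. Tridocosahexaenoin replicate 5 was the highest of all 10, so the groups overlapped. In WT hearts the same median was 0.1. Ddit4, an mTOR inhibitor on that list that was named after its values were seen, differed by −0.84 ± 0.41 (adjusted p = 0.463).

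FoxO targets and muscle atrophy genes had 0 of 19 called, 16 below 0 and a median of −0.14, which was −0.0865 without tridocosahexaenoin replicate 1. Fbxo32, the ubiquitin ligase atrogin-1, which was also named after its values were seen, had 9.22, 9.29, 9.24, 9.3 and 9.35 in tridocosahexaenoin hearts, against 9.64, 9.61, 9.44, 9.44 and 9.69 in trilinolenin hearts. These did not overlap, but its difference of −0.28 ± 0.0739 was not called (adjusted p = 0.0704). Its 2 other bright probe sets gave −0.44 and −0.43, and the gene was called in 2 of 21 alternative settings. The unfolded protein response had 17 of 18 genes above 0 and a median of 0.16, and heat shock genes had 15 of 17 above 0 and a median of 0.14. Without tridocosahexaenoin replicate 1 these medians were 0.0865 and 0.036, and the mean heat shock level of that heart was 1.26, against −0.24 to 0.00217 in the other 4 tridocosahexaenoin hearts and −0.28 to −0.0181 in trilinolenin hearts.

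The list of PPAR and RXR receptors and PGC-1 coactivators had 0 of 16 called, 12 above 0 and a median of 0.11, which was 0.0495 without tridocosahexaenoin replicate 5. Its member Ppargc1a, the coactivator of mitochondrial biogenesis, differed by 0.43 ± 0.17 (adjusted p = 0.293; 0.22 without the 3 arrays of lowest weight). Fatty acid synthesis and desaturation had 0 of 16 called and a median of 0.0265 (−0.0272 without tridocosahexaenoin replicate 1), cholesterol synthesis and uptake 0 of 12 and 0.0269 (0.00483 without tridocosahexaenoin replicate 1), and fatty acid uptake and lipid droplets 0 of 24 and 0.0202 (−0.0432 without replicate 5). Dgat2, which makes triglyceride and was named after its values were seen, had non-overlapping groups in that last list (−0.5 ± 0.14, adjusted p = 0.0841). Genes of ketone and branched-chain amino acid breakdown had 0 of 19 called and 17 below 0, with a median of only −0.0588. Oxidative phosphorylation, contractile and calcium handling genes and extracellular matrix had 0 of 26, 0 of 22 and 0 of 25 members called, with medians of 0.0147, 0.00311 and 0.00431. With 1 array left out these ranged between 0.00235 and 0.0247, between −0.011 and 0.00727, and between −0.0589 and 0.0552.

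Marker genes of the heart's cell types gave 0 called genes, beside 0.328% of all tested genes, so this count says little about cell types. Summed linear signals of 10 cardiomyocyte markers were 147217 to 153507 in tridocosahexaenoin hearts and 147366 to 152839 in trilinolenin hearts. All 12 tested macrophage markers were above 0 (median 0.14), with sums of 3535 to 4745 in tridocosahexaenoin hearts and 3564 to 4275 in trilinolenin hearts. All 9 tested smooth muscle and pericyte markers were below 0 (median −0.14), with sums of 4393 to 5014 in tridocosahexaenoin hearts and 4780 to 5859 in trilinolenin hearts. The 2 tested erythroid markers were also below 0, with a median of −0.71 (−0.9 to −0.46 with 1 array left out), the largest in size of any list. Both had an unadjusted limma p under 0.05. Their sums were 193 to 490 in tridocosahexaenoin hearts and 297 to 946 in trilinolenin hearts, which overlap. Between the same oils in WT hearts these lists had medians of the opposite sign. They were −0.0626 for macrophage, 0.22 for smooth muscle and pericyte and 0.1 for erythroid markers. Of the listed lymphocyte or neutrophil markers, 0 were bright. The 7 tested atrial muscle markers, 4 of them above 0, had sums of 13239 to 27002 in tridocosahexaenoin hearts and 18287 to 25219 in trilinolenin hearts. Their median was 0.037 between the oils and ranged between −0.14 and 0.58 with 1 array left out, the last without tridocosahexaenoin replicate 2, whose mean level was −1.42 where the other 4 hearts of its group had 0.18 to 0.53. In whole tissue, fewer cells of a type and less RNA per cell cannot be told apart. The part of these shifts in the called genes was not tested.

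RNA quality differed slightly between the groups. The log2 signal of the 3′ Actb control probe set minus that of the 5′ one was 0.802 ± 0.0461 in tridocosahexaenoin hearts and 0.705 ± 0.0389 in trilinolenin hearts (SD, n = 5 each), without overlap. The difference of 0.0967 had p = 0.00794 in an exact two-sided permutation test, the smallest value that 5 against 5 hearts allow. The same measure for Gapdh was −0.177 ± 0.033 and −0.169 ± 0.0262 (exact permutation p = 0.651). The part of RNA quality in the called differences was not tested.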

How the data were processed

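Whole-heart RNA was measured on 55 Affymetrix mouse arrays. The deposited values are log2 signals made by the authors with GCRMA 2.2.0, per the submitters' processing notes. They were used as deposited. Such values have no read depth, and the number of arrays limits the precision. Strong quantile-type normalisation would hide a shift of most genes.

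Of 45101 probe sets, 34958 had 1 gene symbol, 932 several and 9211 none. The 64 control probe sets were left out of genes. For each of 18193 genes, of which 9010 had several probe sets, its brightest probe set on average over the 55 arrays stood for it. Limma 3.58.1 in R 4.3.3 fitted 1 mean for each of 12 groups with a shared variance (43 residual and 3.255 prior degrees of freedom). P-values were adjusted by Benjamini and Hochberg over 8237 genes, and genes with adjusted p under 0.05 were called. In data simulated for the comparison between the oils in KO hearts, with 200 of 8237 genes changed, the fit recovered 79.7%, 97.6% and 99.1% of those changed by 0.5, 1 and 2 on the log2 scale, and 4.75% of its calls were false. The simulated noise was independent between genes and had the same spread on every array. The real arrays differed in spread, so these rates describe the fit and not the calls between the oils.

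The rule for named genes took called genes whose 5 tridocosahexaenoin arrays lay on 1 side of the trilinolenin mean, up to 12 in each direction and up to 4 in each list. It added 20 index genes (16 tested), the 3 largest called in each direction in WT hearts and in the interaction, and genes of smallest p where few were called. Members, lists and rules were chosen with earlier results of these data known.

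Replicate numbers are shared between groups. Deviations of same-numbered arrays correlated by −0.04 to 0.37, not all over 0.1, and the numbers were not treated as pairs. At most 0.164% of values were identical between 2 arrays, so no array was a copy. Alternatives were other brightness filters, the mean of probe sets, renormalisation, array weights, another variance prior, a replicate block, smaller fits and arrays left out.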

Additional observations from a re-analysis of the deposited data

Results flagged for a closer look

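Single hearts stood apart from the other 4 of their group in 19 of 222 groups examined (8.56%), where chance gives about 1 in 20, by a wide gap (Dixon's criterion). These groups include genes named after their values were seen and lists that share genes with them, so that rate is not a measure of chance here. Tridocosahexaenoin replicate 1 was the heart concerned most often. Its log2 signal was 10.72 for Ppp1r3c (others 10.08 to 10.20), 5.72 for Cdkn1c (others 5.93 to 5.98), 7.18 for Cyp27a1 (others 7.74 to 7.96) and 11.08 for Hspa1b (others 4.07 to 5.21). Its mean list level, relative to the 10 hearts, was 1.26 for heat shock (others −0.24 to 0.00217), −0.42 for the circadian clock (others 0.0506 to 0.12), −0.0487 for the tricarboxylic acid cycle (others 0.00887 to 0.0294) and −0.0432 for the proteasome (others −0.00951 to 0.000608).

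Among the other tridocosahexaenoin hearts, replicate 5 had 8.18 for Hsd17b11 (others 7.92 to 8.00) and a level of 0.28 for fatty acid uptake and lipid droplets (others −0.11 to −0.0288). Replicate 2 had 7.04 for B4galt6 (others 7.32 to 7.41) and a level of −1.42 for atrial muscle markers (others 0.18 to 0.53).

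Among trilinolenin hearts, replicate 1 had 8.73 for Nr4a1 (others 6.86 to 7.21) and 7.34 for Nf2 (others 7.16 to 7.20), replicate 2 had 8.58 for Tspyl4 (others 8.23 to 8.31), and replicate 3 had 6.48 for Timm8a1 (others 6.81 to 6.92). Replicate 4 had a level of 0.1 for macrophage markers (others −0.15 to −0.11). Replicate 5 had 5.27 for Acot1 (others 3.76 to 4.02) and a level of −0.15 for peroxisomal lipid metabolism (others 0.0233 to 0.0816).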

How the results depend on the processing

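The 27 calls between the oils in KO hearts were 6 with no filter on dim genes, 0 with array weights, 0 in fits of the 2 groups and of the KO groups alone, and 0 to 55 with 1 array left out. After the data were seen, the 3 arrays of weight under 0.5 were left out, which gave 0 calls, and both such tridocosahexaenoin arrays, which gave 10, of which 2 were among the 27. Renormalisation by quantiles gave 28 calls, 16 higher and 12 lower, against 19 and 8. The 46 WT calls were 0 in a fit of the 2 groups alone and 13 to 59 with 1 array left out. The 292 calls of tridocosahexaenoin against control were 12 with the 2 groups alone, 167 with the KO groups alone, 93 and 68 without the low-weight arrays, and 43 to 505 with 1 array left out. The 984 calls of trilinolenin against control were 633 with the 2 groups alone and 649 to 1071 with 1 array left out. The interaction called 0 genes under every alternative run. With the replicate number as a block, 36 genes were called between the oils, 26 of them among the 27. Of the arrays, 3 of 5 for tridocosahexaenoin and 1 of 5 for trilinolenin correlated best with their own number, a hint from the data and not from the design.

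Of 39 uncalled named genes, 11 changed sign. With 1 array left out, Angptl4 gave −0.28 to 0.29, Ucp3 −0.24 to 0.1, Plin5 −0.0238 to 0.39, Plin2 −0.0417 to 0.14, Cd36 −0.0647 to 0.0129, Fkbp5 −0.3 to 0.2, Zbtb16 −0.27 to 0.0695, Ehhadh −0.11 to 0.1, Hsd17b11 −0.0323 to 0.0661 and Ppara −0.02 to 0.12. With the mean of all probe sets Angptl4 was −0.0152, Hsd17b11 −0.0261 and B4galt6 −0.0121. Hsd17b11 was −0.00459 after quantile normalisation, and with array weights Plin2 was −0.00362 and Ppara −0.0263. Without the 3 arrays of low weight Angptl4 was −0.28, Plin2 −0.13, Fkbp5 −0.0797, Zbtb16 0.0307 and Hsd17b11 −0.00131, and without both tridocosahexaenoin arrays of low weight Angptl4 was −0.48, Plin2 −0.18, Fkbp5 −0.2 and Hsd17b11 −0.0277. The cause of these changes was not tested. Dim genes near the brightness minimum have inexact sizes.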
